A study of Danio rerio with 12 samples.

Results

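Keratins are the intermediate filament proteins of epithelial cells. Each filament is built from pairs of a type I and a type II keratin, and the pair that a cell makes follows its kind of epithelium. In zebrafish, *krt4*, *krt5*, *cyt1* and *cyt1l* are known from the enveloping layer and the epidermis of the embryo. *krt8* and the *krt18* genes form the simple epithelial pair, which is also found in single-layered epithelia and in mesothelium. Described here are 10 epithelial keratin genes of 27191 genes in the count data: *krt4*, *krt5*, *krt8*, *krt15*, *krt91*, *krt92*, *krt94*, *krt96*, *cyt1* and *cyt1l*. They were chosen by symbol. All 10 passed the filter on low counts, as did 23222 genes in all, and so did 11 of 13 other keratin genes. *krt96* carries another name in the gene table and was recognised through a RefSeq synonym.

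The counts come from hearts of zebrafish of the enhancer trap line *sqet31Et*, in which EGFP marks the atrioventricular canal (AVC), from 72 hpf also the bulbus arteriosus, and at a low level some of the myocardium. The line was made with a construct in which a basic *krt4* promoter drives EGFP, and the EGFP cells are thus those in which that reporter was active, with the site of its insertion not mapped. Hearts were taken out in bulk, pooled and dissociated with trypsin. The cells were then sorted into a fraction with EGFP (GFP+) and one without (GFP-), at 48 and at 72 hours post-fertilization (hpf). Each fraction at each stage is a group, 4 in all, with 3 libraries each and no treatment, and the cells of all groups carry the same transgene. By the methods, each replicate comprised both fractions of both stages, and the same study elsewhere calls the replicates technical, so that the errors and p-values given here may cover technical spread alone.

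Total counts per library ran from 20530602 to 62359004. Levels are CPM, counts relative to the total of a library after TMM scaling, and each padj comes from the quasi-likelihood test of edgeR, adjusted by Benjamini and Hochberg over all 23222 genes and read against a threshold of 0.05. Background shares of all genes are those of the edgeR fit of all libraries at this threshold. None was taken for other fits, unadjusted p-values or DESeq2. The sorted cells were a mixture. Heart muscle markers were present in all groups, with a summed level of 6 cardiomyocyte genes of 1619 to 3558 CPM in GFP+ and 28.2 to 133 CPM in GFP- cells at 48 hpf. Replicate 1 of GFP- cells at 72 hpf stood apart, with 37433 CPM of 4 red cell genes against 3766 and 4311 CPM in the other libraries of its group and 1344 CPM of 5 exocrine pancreas genes against 9.39 and 84 CPM. The TMM factor of that library was 0.575, against 1.02 and 1.18 in replicates 2 and 3 of its group. Such a factor raises its CPM relative to its shares of total counts. In such bulk samples, fewer cells of a type and less RNA per cell cannot be told apart.

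At 48 hpf the keratin genes were higher in GFP+ than in GFP- cells. Of the 10 genes, 9 were called higher, against 14.6% of all genes tested, and *krt94* did not pass. No keratin of the 10 was called lower (14.4% of all genes were), nor was any at an unadjusted p below 0.05 or by DESeq2, which called 8 higher and gave no p for *krt91* in any comparison. In all 10, every GFP+ library lay above every GFP- library, an order that 27.8% of all genes showed. The median log2 fold change (log2FC) of the 10 genes was 4.92, while that of all genes tested was 0.03.

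The difference was large for the epidermal keratins. *krt4*, a type II keratin of the enveloping layer and periderm, had 3158, 1338 and 2430 CPM in replicates 1, 2 and 3 of GFP+ cells and 58.3, 38.2 and 105 CPM in GFP- cells at 48 hpf. The lowest GFP+ library thus lay well above the highest GFP- library, and the log2FC was 5.10 (SE 0.50, padj = 7.7e-05). Since the reporter carries a *krt4* promoter, reads of the reporter could have been counted as *krt4*, which was not tested. *krt5*, another epidermal type II keratin, had 210, 67.0 and 90.5 CPM against 1.21, 1.29 and 6.72 CPM, and a log2FC of 5.33 (SE 0.78, padj = 0.00042). Among the GFP- libraries, replicate 3 was the highest for both genes.

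The type I keratins *cyt1* and *cyt1l* followed the same order. *cyt1* had 489, 208 and 447 CPM in GFP+ and 2.83, 5.45 and 23.8 CPM in GFP- cells at 48 hpf (log2FC 5.16, SE 0.80, padj = 0.00057). *cyt1l* had 395, 152 and 359 CPM against 0.873, 2.55 and 17.0 CPM (log2FC 5.48, SE 1.18, padj = 0.004). The GFP- libraries were uneven, and for *cyt1l* replicate 3 of GFP- cells had 19.4 times the level of replicate 1. The 2 genes are neighbours in the RefSeq annotation. If they share sequence, their separate counts depend on how Salmon divided shared reads, which was not tested. The ratio of *cyt1l* to *cyt1* counts was 0.73 to 0.845 in the 6 GFP+ libraries of both stages, but 0.309 to 0.712 in GFP- libraries of 48 hpf and 0.305 to 1.12 in those of 72 hpf.

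*krt91*, *krt92*, *krt96* and *krt15* were also called, each with an order of libraries that did not overlap. *krt92* had 64.1, 33.7 and 75.3 CPM in GFP+ and 1.52, 1.07 and 3.92 CPM in GFP- cells (log2FC 4.74, SE 0.63, padj = 0.00025). *krt96* was low in all libraries, with 8.33, 4.65 and 6.55 CPM against 0.437, 0.384 and 0.132 CPM, the last resting on 4 counts (log2FC 4.32, SE 0.87, padj = 0.0026). *krt15*, whose mammalian namesake is a keratin of the basal epidermis, had 7.89, 7.20 and 6.26 CPM against 1.08, 0.466 and 1.09 CPM (log2FC 3.02, SE 0.52, padj = 0.0011). For *krt91* a single library set the level: replicate 1 of GFP+ cells had 210 CPM and replicates 2 and 3 had 17.9 and 23.6 CPM, against 1.36, 0.658 and 2.77 CPM in GFP- cells. Its log2FC of 5.72 (SE 0.95, padj = 0.00085) was 3.71 without that library and stayed past the threshold. In that library *krt91* and *krt5* held the same count, 7988.

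**Figure D1:**
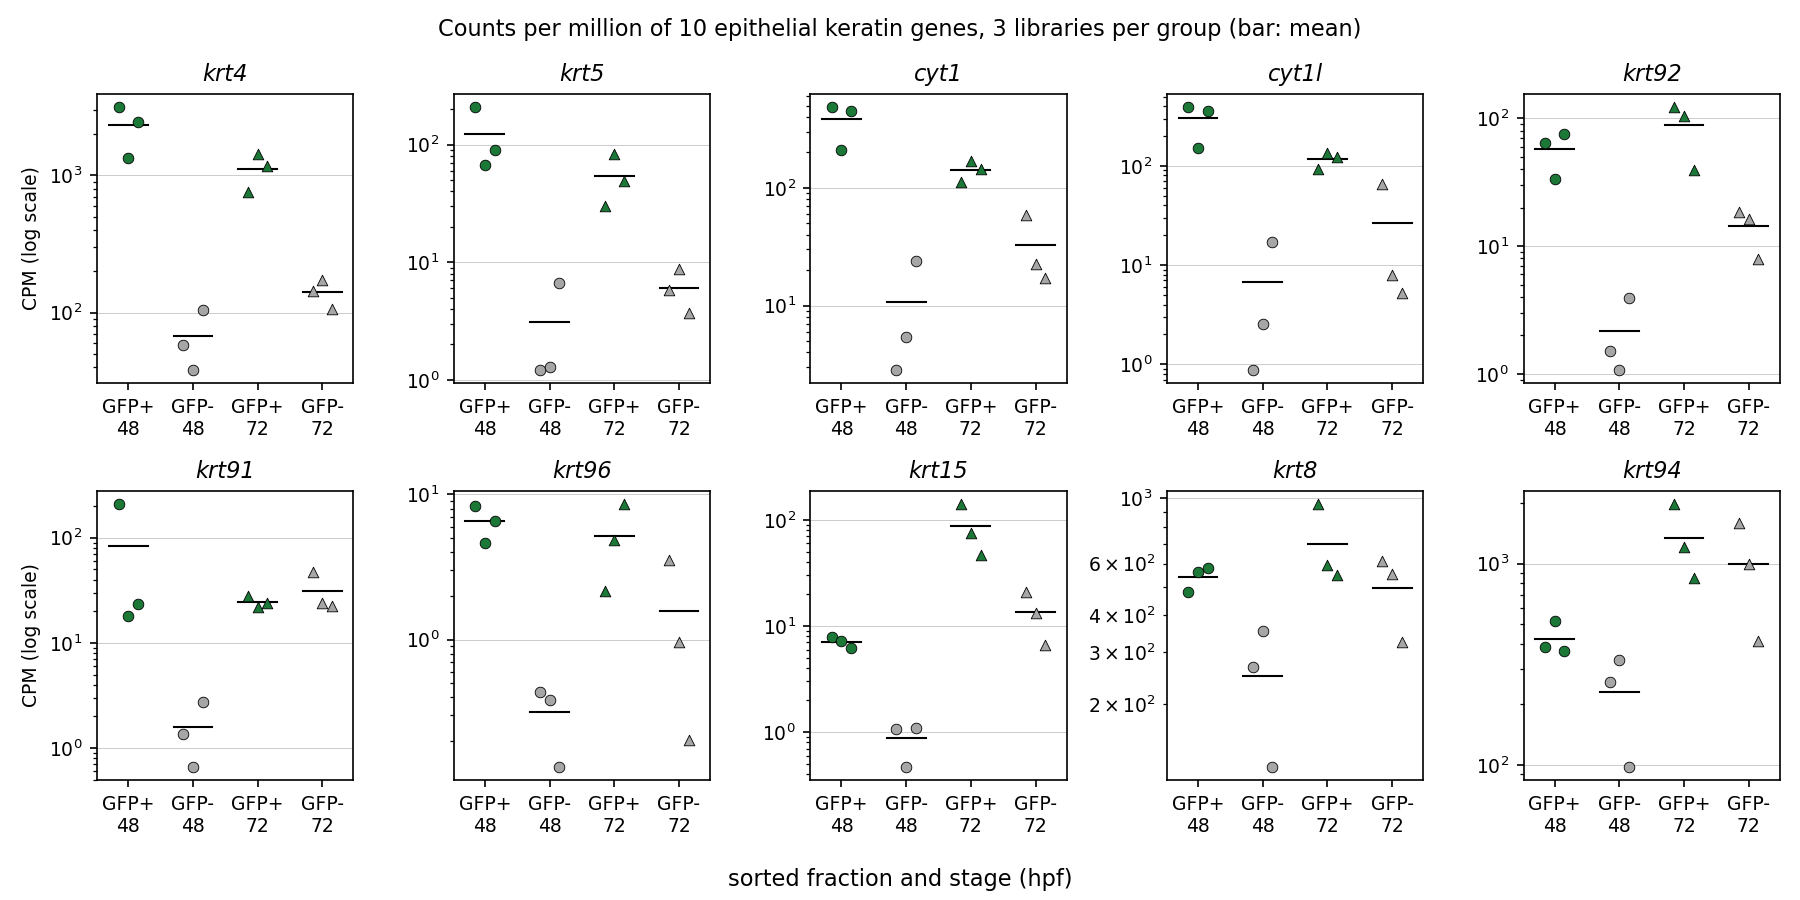
Levels of the 10 epithelial keratin genes in CPM (log scale) by sorted fraction and stage in hpf, with a point for each of the 3 libraries of a group and a bar at their mean. At 48 hpf every GFP+ library lies above every GFP- library for all 10 genes, for *krt4* from 1338 to 3158 CPM against 38.2 to 105 CPM, while for *krt8* and *krt94* the fractions lie close together.

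The simple epithelial keratin *krt8* differed far less. Its levels at 48 hpf were 480, 560 and 579 CPM in the GFP+ and 268, 355 and 122 CPM in the GFP- libraries, which gave a log2FC of 1.12 (SE 0.39, padj = 0.0489). This call was close to the threshold. It held in 1 of 6 fits that left out a library, with padj up to 0.18. *krt94* had 386, 519 and 367 CPM against 259, 334 and 97.6 CPM, with a log2FC of 0.88 (SE 0.52, padj = 0.23). When the fractions of a replicate were paired, *krt94* passed with padj = 0.035 and *krt8* with padj = 0.021.

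The *krt18* genes, which encode the type I partners of *krt8*, were each called higher in GFP+ cells at 48 hpf. *krt18a.1* had 908, 1030 and 1155 CPM against 444, 498 and 217 CPM, with a log2FC of 1.42 (SE 0.36, padj = 0.0096) near that of *krt8*. *krt18b* had 192, 149 and 214 CPM against 48.6, 41.5 and 35.3 CPM (log2FC 2.15, SE 0.29, padj = 0.00029). *krt18a.2* stayed at or below 0.955 CPM in all 6 libraries, with a log2FC of 3.06 (SE 0.92, padj = 0.024). Its GFP- libraries held 0, 9 and 1 counts. The *krt18a.2* call held in 2 of 6 fits that left out a library, with padj up to 0.099. The median log2FC at 48 hpf was 1.78 over *krt8* and the 3 *krt18* genes and 5.24 over *krt4*, *krt5*, *cyt1* and *cyt1l*. At 72 hpf these medians were 1.41 and 2.58. At that stage *krt18b* (2.33) and *krt18a.2* (2.58) lay within the range of *krt4*, *krt5*, *cyt1* and *cyt1l*, 2.12 to 3.16.

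Whether *krt4* and *krt5* differed between the fractions to the same extent as *krt8* was compared as the ratio of counts within each library. The scaling of libraries does not touch this measure. No ratio to the *krt18* genes was taken. The ratio of *krt4* to *krt8* counts was 6.58, 2.39 and 4.20 in GFP+ and 0.218, 0.108 and 0.861 in GFP- libraries of the earlier stage. At 72 hpf it was 0.795, 2.4 and 2.13 against 0.234, 0.313 and 0.33. No GFP- library of a stage reached the lowest GFP+ library of that stage. On the log2 scale the mean ratio was higher in GFP+ cells by 3.89 at 48 hpf (2.01 ± 0.73 against -1.88 ± 1.53, SD, n = 3) and by 2.46 at 72 hpf (0.67 ± 0.87 against -1.79 ± 0.27). For *krt5* to *krt8* the differences were 4.38 and 2.62. Each of these 4 ratios gave p = 0.1 in a two-sided exact permutation test, the smallest p that 3 against 3 libraries allow, and p = 0.1 after adjustment over the 4 tests. No ratio could therefore pass the threshold in this design.

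**Figure D2:**
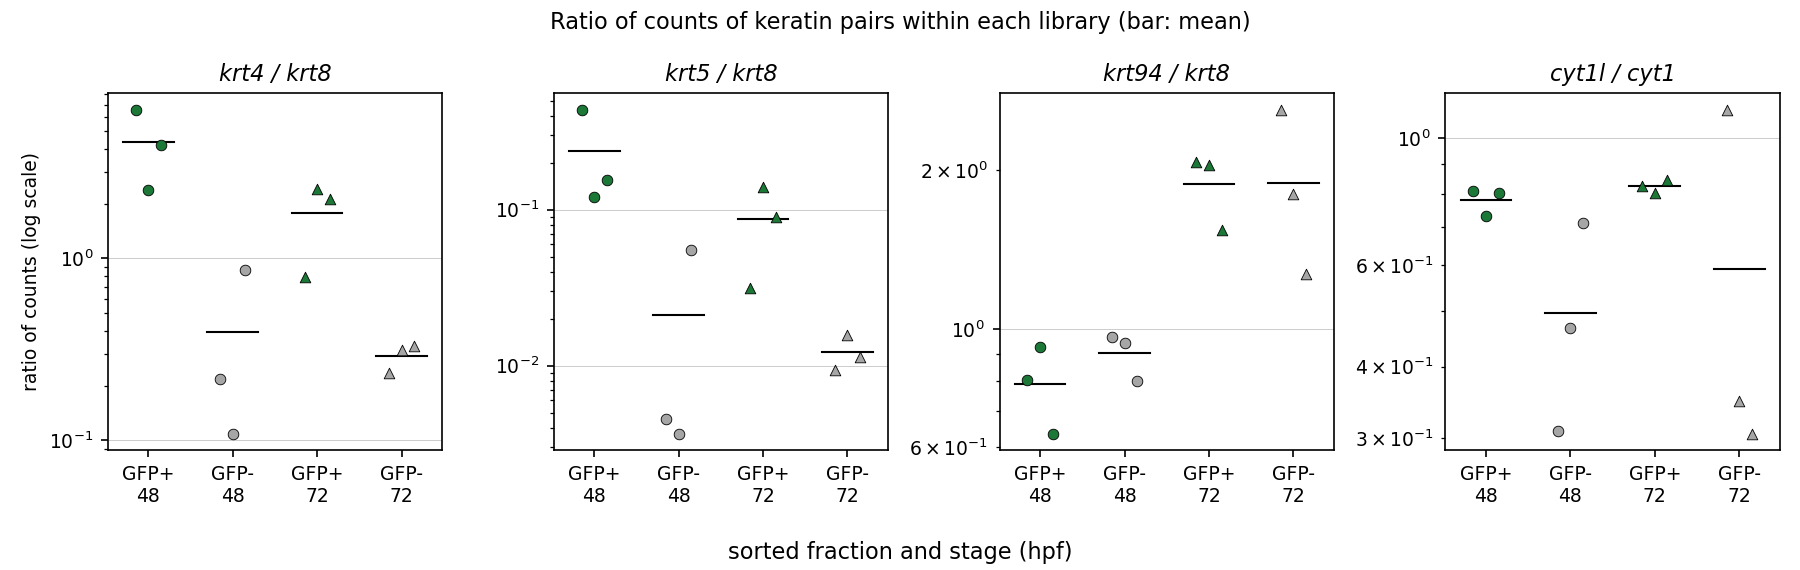
Ratio of counts of keratin gene pairs within each library (log scale) by fraction and stage in hpf, with a point for each library and a bar at the mean. The *krt4* to *krt8* ratio lies from 2.39 to 6.58 in GFP+ and from 0.108 to 0.861 in GFP- cells at 48 hpf, the *krt94* to *krt8* ratio moves with stage, and the *cyt1l* to *cyt1* ratio is even among GFP+ libraries.

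At 72 hpf fewer keratins separated the fractions. Of the 10, *krt4*, *krt5*, *krt15* and *krt92* were called higher in GFP+ cells, 4 genes against a background of 6.22%. No gene of the 10 was called lower (background 10.8%), also by DESeq2 or at an unadjusted p below 0.05. The libraries of the fractions did not overlap for 6 genes, and 16.2% of all genes were higher in GFP+ cells with no overlap. The median log2FC of the 10 was 2.14, against -0.02 for all genes tested.

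At 72 hpf *krt4* had 761, 1428 and 1170 CPM in GFP+ and 143, 173 and 107 CPM in GFP- cells (log2FC 2.99, SE 0.45, padj = 0.00078). *krt5* had 30.2, 83.1 and 49.2 CPM against 5.76, 8.74 and 3.67 CPM (log2FC 3.16, SE 0.71, padj = 0.0081). For both genes GFP+ replicate 1 was the lowest of its group, whereas at 48 hpf it was the highest. *krt15* had 142, 75.6 and 46.3 CPM against 21.1, 13.2 and 6.57 CPM (log2FC 2.70, SE 0.50, padj = 0.0025). *krt92* had 123, 104 and 39.1 CPM against 18.6, 16.4 and 7.86 CPM (log2FC 2.64, SE 0.57, padj = 0.0064). In CPM of these genes replicate 1 was the highest and replicate 3 the lowest in both fractions. GFP- replicate 1 carried the TMM factor of 0.575, which raises its CPM.

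The *cyt1* pair and *krt96* did not pass at 72 hpf, with 1 GFP- library above the other libraries of its group in CPM. *cyt1* had 113, 169 and 145 CPM in GFP+ and 58.7, 22.6 and 17.3 CPM in GFP- cells (log2FC 2.12, SE 0.70, padj = 0.0537, and 0.03 with the fractions paired). *cyt1l* had 93.7, 136 and 123 CPM against 65.9, 7.89 and 5.27 CPM (log2FC 2.17, SE 1.02, padj = 0.17). *krt96* had 2.15, 4.84 and 8.62 CPM against 3.56, 0.959 and 0.204 CPM (log2FC 1.82, SE 0.78, padj = 0.14). The high GFP- library was in each case replicate 1, the one rich in red cell and pancreas genes. Its TMM factor of 0.575 raises its CPM relative to its shares of total counts. Without it all 3 genes passed, with log2FC of 2.86 (padj = 0.015), 4.17 (padj = 0.0093) and 3.11 (padj = 0.0091), and the count of called genes rose from 4 to 7.

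*krt91*, *krt8* and *krt94* gave no difference past the threshold at 72 hpf. *krt91* had 27.8, 22.1 and 24.2 CPM in GFP+ and 47.0, 24.0 and 22.3 CPM in GFP- cells, with a log2FC of -0.33 (SE 0.77, padj = 0.8). *krt8* had 957, 595 and 550 CPM against 611, 553 and 325 CPM (log2FC 0.50, SE 0.39, padj = 0.4). *krt94* had 1980, 1211 and 848 CPM against 1589, 998 and 414 CPM (log2FC 0.43, SE 0.52, padj = 0.6). In CPM of these 3 genes replicate 1 was the highest library of both fractions, and the groups overlapped. The order of GFP- libraries rests on the scaling, with a TMM factor of 0.575 in replicate 1. As a share of total counts, *krt8* and *krt94* together held 0.127, 0.158 and 0.0874% in GFP- replicates 1, 2 and 3.

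The *krt18* genes parted at 72 hpf. *krt18b* had 835, 1005 and 683 CPM in GFP+ and 213, 155 and 134 CPM in GFP- cells, a log2FC of 2.33 (SE 0.29, padj = 0.00025) like that at 48 hpf. *krt18a.1* had 1682, 1368 and 1254 CPM against 1927, 1477 and 965 CPM, with a log2FC of -0.02 (SE 0.35, padj = 0.97) whose sign turned with the scaling by total counts. *krt18a.2* was called (log2FC 2.58, SE 0.81, padj = 0.0454) but not with the fractions paired (padj = 0.098). It passed in 1 of 6 fits that left out a library, with padj up to 0.3. Of the 11 other keratin genes tested, 9 were called higher in GFP+ cells at 48 hpf (background 14.6%) and 4 at 72 hpf (background 6.22%). Without GFP- replicate 3 of 48 hpf the first count was 5, and at 72 hpf it was 2 without GFP+ replicate 1 or 2 or without GFP- replicate 2 or 3. Besides the *krt18* genes, the largest changes were those of *krt1-19e* (log2FC 6.90 and 5.20 at 48 and 72 hpf), *krt17* (5.18 and 2.52) and, at 48 hpf, *krt97* (4.11).

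**Figure D3:**
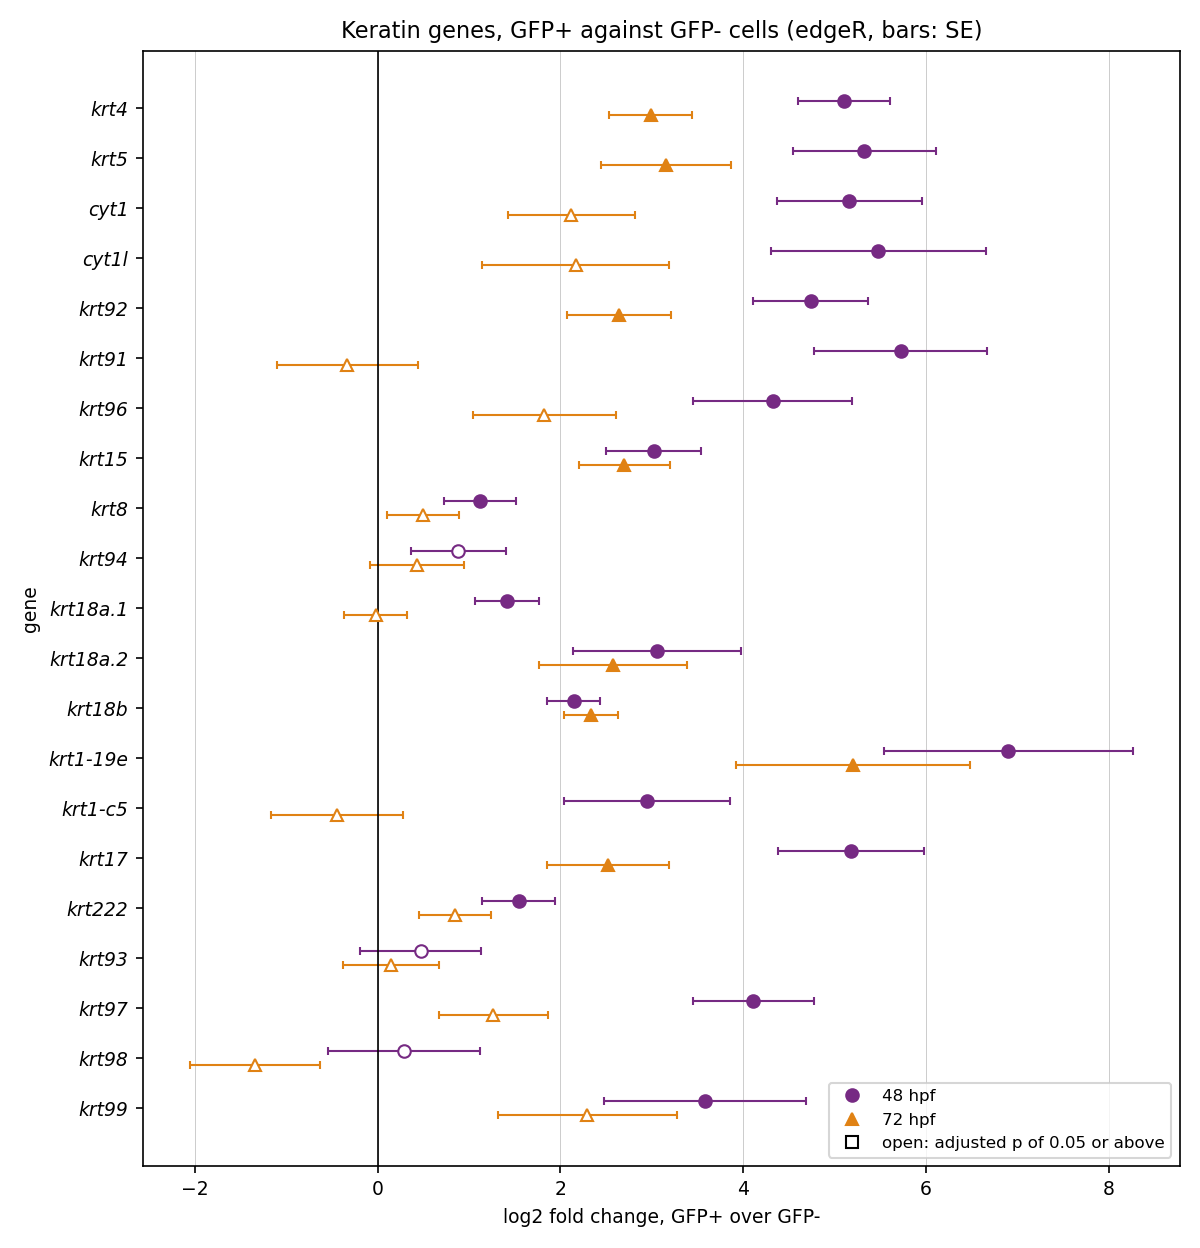
Log2 fold change of GFP+ over GFP- libraries for the 10 keratin genes and 11 other keratin genes at 48 hpf (circles) and 72 hpf (triangles), with SE as bars and open symbols for padj of 0.05 or above. *krt4*, *krt5*, *cyt1* and *cyt1l* lie between 5.10 and 5.48 at 48 hpf and between 2.12 and 3.16 at 72 hpf. At 48 hpf *krt92*, *krt96* and *krt15* lie at 4.74, 4.32 and 3.02. *krt8* and *krt94* lie near 1 or below at both stages, and *krt91* goes from 5.72 to -0.33.

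Between 48 and 72 hpf, *krt15* and *krt94* rose in GFP+ cells, 2 genes of 10 against a background of 11.4% higher. None of the 10 was called lower (background 11.5%), with 2 lower at an unadjusted p below 0.05 and none by DESeq2. The median log2FC was -0.69 for the 10 genes and -0.02 for all genes tested. *krt15* went from a mean of 7.12 to 88.0 CPM, a log2FC of 3.63 (SE 0.52, padj = 0.00065). *krt94* went from 424 to 1346 CPM (log2FC 1.67, SE 0.53, padj = 0.039), and this call held in 1 of 6 fits that left out a library. *krt4*, *krt5*, *cyt1* and *cyt1l* had log2FC between -1.42 and -1.04 that did not pass, with padj between 0.096 and 0.35. A fit of GFP+ libraries alone called *krt4*, *cyt1* and *cyt1l* lower, and the share of all genes called in that fit was not taken. *krt8* had a log2FC of 0.38 (SE 0.39, padj = 0.52), and *krt92* of 0.62 (SE 0.53, padj = 0.43). *krt91* had -1.76 (SE 0.79, padj = 0.13), which became 0.25 without the GFP+ replicate 1 of 48 hpf.

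In GFP- cells, *krt15*, *krt91*, *krt92*, *krt94* and *krt96* rose from 48 to 72 hpf, 5 genes of 10 against a background of 26.1% higher. None was called lower (background 22.3%), also by DESeq2 or at an unadjusted p below 0.05. The median log2FC was 2.03 for the 10 genes and 0.14 for all genes tested. The mean of *krt91* went from 1.59 to 31.1 CPM (log2FC 4.29, SE 0.89, padj = 0.0023), and the lowest library at 72 hpf, with 22.3 CPM, lay above the highest at 48 hpf, with 2.77 CPM. *krt15* went from 0.877 to 13.6 CPM (log2FC 3.95, SE 0.54, padj = 0.00023), *krt92* from 2.17 to 14.3 CPM (2.73, SE 0.58, padj = 0.0026) and *krt94* from 230 to 1000 CPM (2.12, SE 0.54, padj = 0.0068). For *krt96* (2.17, SE 0.85, padj = 0.0497) the libraries of the stages overlapped, and without replicate 1 of 72 hpf its log2FC was 0.87 (padj = 0.34). *krt4* (1.07, padj = 0.0534) and *krt8* (1.00, padj = 0.051) lay just outside the threshold. Without replicate 1 of 72 hpf the count was 4, and without replicate 3 of either stage it was 8.

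*krt15*, *krt94* and *krt18b* were thus higher at the later stage in both fractions. The ratio of *krt94* to *krt8* counts lay at 0.634 to 0.966 in the 6 libraries of 48 hpf and at 1.27 to 2.6 in those of 72 hpf, with no clear order of the fractions. *krt18b* rose with a log2FC of 2.19 (SE 0.29, padj = 0.00046) in GFP+ and 2.00 (SE 0.29, padj = 0.00032) in GFP- cells. *krt18a.1* rose in GFP- cells (1.91, SE 0.36, padj = 0.0014) and had 0.48 (SE 0.35, padj = 0.35) in GFP+ cells. Of the 11 other keratin genes, 2 rose in GFP+ cells (background 11.4%), the second being *krt93* (3.15). In GFP- cells 8 rose (background 26.1%), with *krt1-c5* (4.62), *krt98* (3.91) and *krt93* (3.47) changing most, each below 7 CPM in all libraries.

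**Figure D4:**
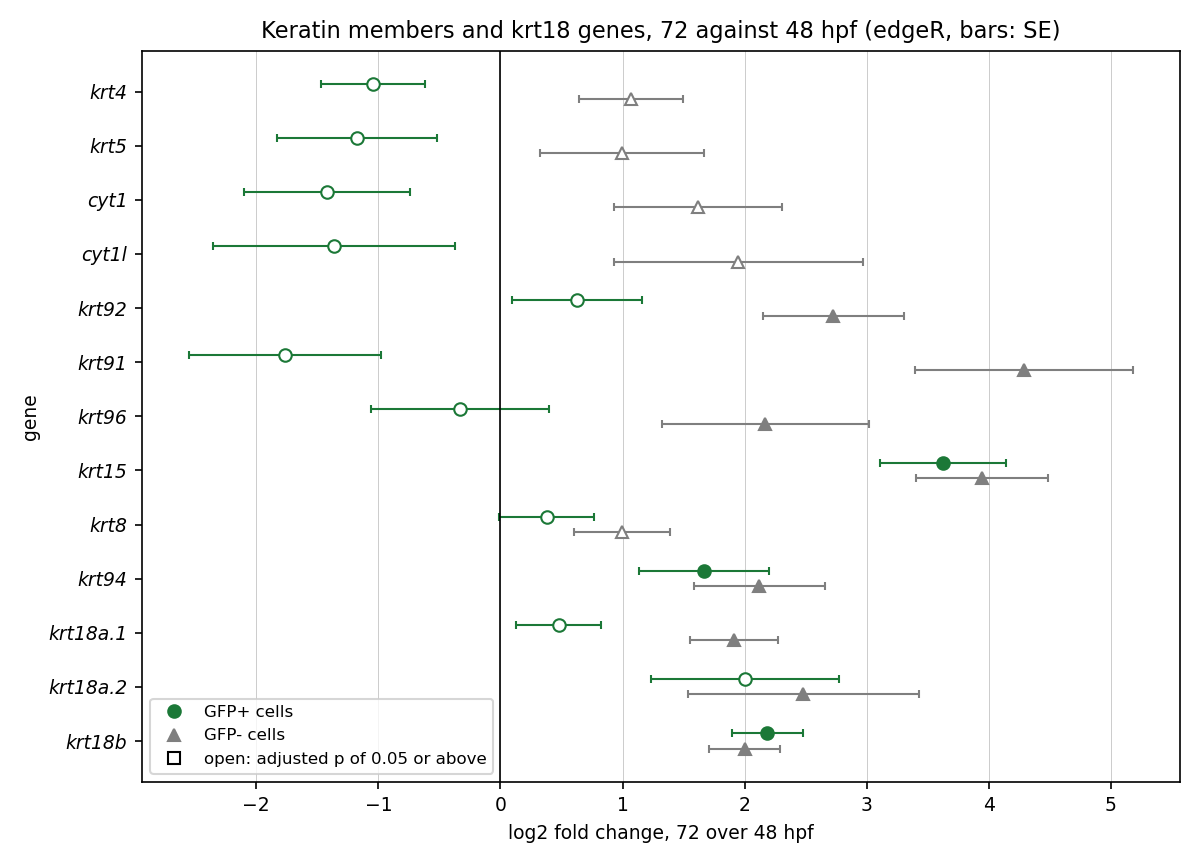
Log2 fold change from 48 to 72 hpf in GFP+ cells (circles) and GFP- cells (triangles) for the 10 keratin genes and the 3 *krt18* genes, with SE as bars and open symbols for padj of 0.05 or above. *krt15*, *krt94* and *krt18b* are past the threshold in both fractions. *krt4*, *krt5*, *cyt1* and *cyt1l* lie between -1.42 and -1.04 in GFP+ and between 0.99 and 1.95 in GFP- cells without passing.

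The change of the GFP+ to GFP- difference between the stages was tested as an interaction. *krt91* and *krt4* were called, with a smaller difference at 72 hpf, 2 genes of 10 against a background of 5.7% lower. At an unadjusted p below 0.05, 7 of 10 were lower, and 3 by DESeq2. The 5.7% is not the share of all genes for these looser counts, which was not taken. No gene of the 10 had a larger difference at 72 hpf (background 2.47%), also by DESeq2 or at an unadjusted p below 0.05. The log2FC of this change was -6.05 (SE 1.18, padj = 0.01) for *krt91*, with all 12 fits that left out a library past the threshold and -4.03 as the nearest to 0. For *krt4* it was -2.11 (SE 0.60, padj = 0.0487). This call held in 4 of 12 such fits, was lost with replicate numbers as a block shared by the stages (padj = 0.058) and held with a block for each replicate of a stage (padj = 0.018), a fit chosen after seeing the data. The median over the 10 genes was -2.14, and -0.10 for all genes tested. The change was -0.62 (SE 0.55) for *krt8*, -0.45 (SE 0.73) for *krt94* and -0.32 (SE 0.67) for *krt15*. None of the 11 other keratins was called by edgeR, with 4 lower at an unadjusted p below 0.05 and 4 by DESeq2. With replicate numbers as a block shared by the stages, *krt1-c5* (padj = 0.035) and *krt97* (padj = 0.044) were called lower. Leaving out GFP- replicate 3 of 72 hpf also gave 2 calls.

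Across the 12 libraries some keratins varied together. The log2 CPM of *krt4* and *krt5* had a Pearson r of 0.987, *cyt1* and *cyt1l* of 0.989 and *krt4* and *cyt1* of 0.957. *krt8* had 0.89 with *krt94* and 0.569 with *krt4*. These values share the 4 groups. As deviations from the group means, *krt4* and *krt5* had r = 0.906 and *krt8* and *krt94* r = 0.938, whereas *krt4* and *krt8* had r = -0.569. Among 11322 genes outside the keratins whose log2 CPM averaged 3 or more, those most like *krt4* were *chchd3b* (r = 0.984), *cdh1* (0.974), *zgc:92360*, *nfs1* and *alox12* (0.942). *cdh1* encodes E-cadherin, the adhesion protein of epithelial junctions. Those most like *krt8* were *otud1* (0.967), *cd276*, *ccdc80*, *gata6* and *st3gal8* (0.953). By position in the RefSeq annotation of the assembly GRCz12tu, *krt92*, *cyt1l*, *cyt1* and *krt91* lie in 1 run of neighbouring keratin genes, *krt94* and *krt15* in another, and *krt5* and *krt8* beside the *krt18a* genes. *krt5* and *krt8* were thus neighbours that differed between the fractions by 5.33 and 1.12 at 48 hpf.

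Most markers of epidermis and periderm were, like the keratins, higher in GFP+ cells at 48 hpf. Of 28 epidermis and periderm genes, 25 were called higher and 2 lower in GFP+ cells at 48 hpf, with a median log2FC of 3.59, and 12 higher and 1 lower at 72 hpf, with a median of 1.07. The background was 14.6% higher and 14.4% lower at 48 hpf, and 6.22% and 10.8% at 72 hpf. The defining markers were *epcam*, an epithelial adhesion protein (log2FC 4.63 at 48 and 1.62 at 72 hpf), *tp63*, a regulator of basal epidermis (1.92, and 0.73 with padj = 0.19), and *cdh1* (4.02 and 1.89). *epcam* was present in each library, with 189 to 392 CPM in GFP+ and 10.2 to 17.1 CPM in GFP- cells at 48 hpf. Those lower at 48 hpf were *tfap2a* and *tfap2c*, transcription factors that neural crest cells also use. In GFP- cells 17 of the 28 rose from 48 to 72 hpf and 2 fell, in GFP+ cells 5 fell and none was called higher (1 by DESeq2 and 1 at an unadjusted p below 0.05), and in the interaction 10 were called lower. The background was 26.1% higher and 22.3% lower in GFP- cells, 11.4% and 11.5% in GFP+ cells and 5.7% lower in the interaction. The count of 5 in GFP+ cells was 0 without replicate 1 of 72 hpf and 1 to 3 without replicate 2 or 3 of 72 hpf or replicate 1 or 3 of 48 hpf. That of 10 in the interaction was 4 without GFP- replicate 1 of 48 hpf, and 5 or 6 without GFP+ replicate 1 or 3 of 48 hpf or replicate 2 or 3 of 72 hpf. The summed level of the list was 1476 to 2352 CPM in GFP+ and 753 to 835 CPM in GFP- cells at 48 hpf, and 1652 to 2223 CPM against 1050 to 3329 CPM at 72 hpf. The 3329 CPM was that of GFP- replicate 1, in which *icn* alone had 2524 CPM. In GFP- replicates 2 and 3 of 72 hpf *icn* had 519 and 258 CPM. Whether epidermis and periderm cells accounted for the keratin differences was not tested.

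Of the organs near the heart, liver and gut had more genes called higher in GFP+ cells at 48 than at 72 hpf. The share of all genes called higher also went from 14.6% at 48 hpf to 6.22% at 72 hpf. The exocrine pancreas list had median log2FC of -1.89 at 48 hpf and -2.91 at 72 hpf and no call by edgeR between the fractions. At 48 hpf *ela2* and *ela3l* of this list were close to absent, with at most 0.334 CPM in any library. *prss1* had 3.92 (padj = 0.056) at 48 hpf and -2.96 (padj = 0.14) at 72 hpf. Its interaction was called lower (-6.87, padj = 0.0451), with 1184, 69.6 and 5.04 CPM in the GFP- libraries of 72 hpf. All 11 liver genes were called higher in GFP+ cells at 48 hpf (median log2FC 5.37), among them *fabp10a* (5.61), *tfa* (5.91) and *fga* (6.33). At 72 hpf edgeR called none of them, with 1 at an unadjusted p below 0.05 and 1 by DESeq2, and their summed level went from 22.9 to 74.1 CPM in GFP- cells at 48 hpf to 2241 to 6201 CPM at 72 hpf. Of 8 gut epithelium genes, 6 were higher at 48 hpf and 2 at 72 hpf, with *cdx1b* (1.48 and 1.83) and *vil1* (1.46 and 1.93) called at both and *fabp2* (4.71) at 48 hpf. The 2 gut genes at 72 hpf became 1 without GFP+ replicate 2 and 4 without GFP- replicate 1. The part of these organs in the keratin counts was not tested.

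For the lists that follow, the background was 14.6% higher and 14.4% lower at 48 hpf, and 6.22% and 10.8% at 72 hpf. Of 7 epicardium and mesothelium genes, tissues in which simple epithelial keratins are known, 4 were called higher in GFP+ cells at 48 hpf and 3 at 72 hpf, with *tbx18* at both (1.72 and 3.85) and *wt1b* at 48 hpf (2.25). *tcf21* had 1.52 and 0.12 and did not pass. The 4 calls at 48 hpf fell to 1 without GFP- replicate 3 and to 2 without GFP+ replicate 1 or 3, and the 3 at 72 hpf became 5 without GFP- replicate 1. All 6 cardiomyocyte genes were higher in GFP+ cells at 48 hpf and 3 at 72 hpf, with *myl7* at 5.61 and at 1.82 (padj = 0.091). The count at 72 hpf was 1 without GFP+ replicate 2 and 5 without GFP- replicate 1. Of 6 endocardium and endothelium genes, none was called at 48 hpf, also by DESeq2 or at an unadjusted p below 0.05, and 2 were lower at 72 hpf, or 1 when any single library of that stage other than GFP- replicate 1 was left out. *cdh5* had log2FC of 0.51 and -1.22 that did not pass. All 4 red cell genes were lower in GFP+ cells at both stages, such as *hbae3* (-7.04 and -10.31). Of 5 smooth muscle and bulbus arteriosus genes, 4 were higher in GFP+ cells at 48 hpf and 2 at 72 hpf. Their median log2FC was 2.15 and -0.333. *elnb*, an elastin of the bulbus, had 1.69 (padj = 0.3) and 4.09. At 48 hpf it was close to absent, with at most 0.0532 CPM in any library. The 2 loci named *tagln* had 4.94 and 1.63 at 48 hpf, both called. At 72 hpf they had -1.66 (padj = 0.11) and -0.675 (padj = 0.33). Of 6 lens and retina genes, 3 were lower at 48 and 4 at 72 hpf. Of 5 exocrine pancreas genes, edgeR called none at 48 hpf (1 in each direction by DESeq2 and at an unadjusted p below 0.05) and none at 72 hpf (2 lower by DESeq2 and 4 lower at an unadjusted p below 0.05). Without GFP- replicate 3 of 72 hpf edgeR called 3 of them lower at that stage. At 48 hpf the keratins were higher in the fraction that also held more epithelial, liver and cardiomyocyte transcripts and fewer red cell transcripts.

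**Figure D5:**
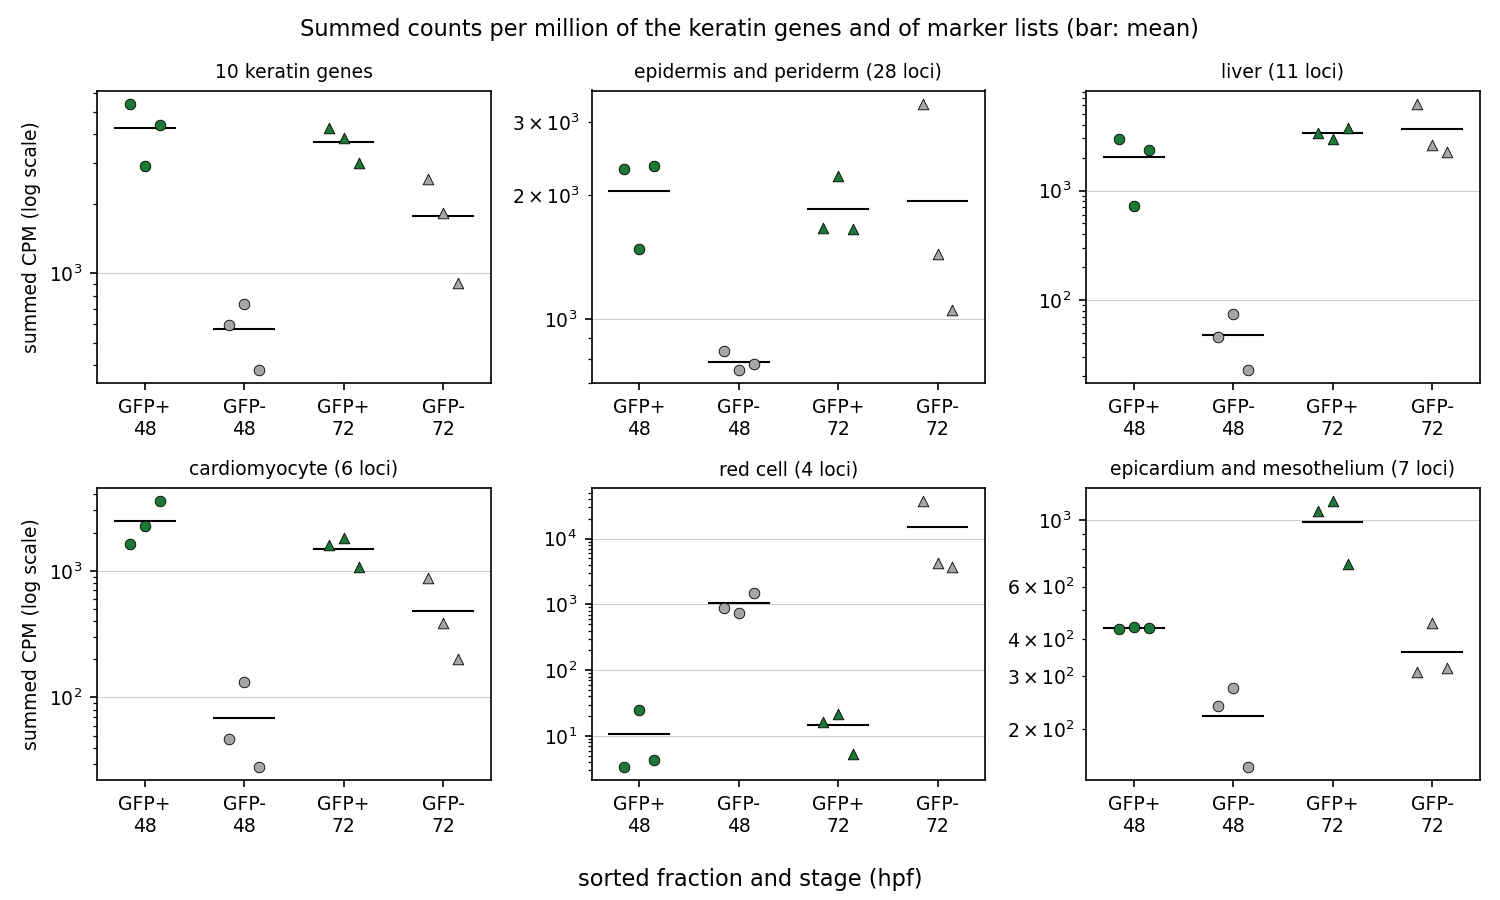
Summed CPM (log scale) of the 10 keratin genes and of 5 lists of marker genes by fraction and stage in hpf, with a point for each library and a bar at the mean of 3. The keratin sum lies from 2907 to 5407 CPM in GFP+ and from 381 to 739 CPM in GFP- cells at 48 hpf, the liver sum rises in GFP- cells from at most 74.1 to at least 2241 CPM, and replicate 1 of GFP- cells at 72 hpf stands above its group in the red cell panel.

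The 10 keratins summed to 5407, 2907 and 4385 CPM in GFP+ and 594, 739 and 381 CPM in GFP- cells at 48 hpf, and to 4231, 3829 and 3003 CPM against 2563, 1818 and 909 CPM at 72 hpf. As shares of total counts, GFP- replicates 1, 2 and 3 of 72 hpf held 0.147, 0.185 and 0.108%. Without *krt8* and *krt94*, which were set apart after their values were seen, the GFP- libraries held 50.1 to 161 CPM at 48 hpf and 170 to 364 CPM at 72 hpf, against 1829 to 4542 and 1294 to 2023 CPM in GFP+ cells. In counts, without correction for transcript length, most of the sum in GFP- cells thus came from *krt8* and *krt94*.

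Proteins that anchor keratin filaments followed in part. Of 11 genes, 7 were higher in GFP+ cells at 48 hpf (median log2FC 1.40, background 14.6%) and 5 at 72 hpf (median 1.00, background 6.22%). The 7 became 4 without GFP- replicate 1. None was called lower at either stage, with 1 lower at 48 hpf at an unadjusted p below 0.05 and by DESeq2. The plectin gene *pleca* had 1.40 (padj = 0.014) and 1.23 (padj = 0.041), and its copy *plecb* 0.85 (padj = 0.19) and 0.10 (padj = 0.91). *evpla*, which encodes an envoplakin, had 3.31 and 2.61, both called. *evpla*, *ppl* and *perp* stand on the epidermis list as well. Other intermediate filament genes went in both directions. Of 13 tested, 3 were higher and 7 lower in GFP+ cells at 48 hpf, and 3 higher and 2 lower at 72 hpf, with median log2FC of -0.96 and -0.33. The background was 14.6% higher and 14.4% lower at 48 hpf, and 6.22% and 10.8% at 72 hpf. These counts moved with single libraries. The 10 calls at 48 hpf fell to 3 without GFP- replicate 3, 4 without GFP+ replicate 1, 5 without GFP+ replicate 2 and 6 without GFP- replicate 1 or with total counts. The 5 at 72 hpf fell to 0 without GFP+ replicate 1, 1 without GFP+ replicate 2, and 2 without GFP- replicate 3 or with total counts. The lamin gene *lmna* was higher at both stages (1.98 and 1.34), and of the 2 loci named *vim*, for vimentin, both had negative values at 48 hpf (-0.40, padj = 0.69, and -0.96, padj = 0.04) and both were called higher at 72 hpf (2.16 and 1.29), a call that neither kept without GFP+ replicate 1 of 72 hpf.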

How the data were processed

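RNA with poly-A tails from sorted heart cells was made into full-length cDNA (SMART-Seq v4, Nextera XT) and sequenced in pairs as 12 libraries. The authors removed adapters with Cutadapt 1.17 and assigned reads to GRCz11 with Salmon 0.9.1. The deposited files give whole-number counts for each Ensembl gene, not normalized, and how transcripts were summed to genes is not given in the sources used here. Counts of similar copies are uncertain. Without transcript lengths, the sums and count ratios of different genes do not give their relative numbers of transcripts.

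Of 27191 genes, 25441 were named from a gene name table, with spelling and synonyms from RefSeq, and 1750 had no symbol. Counts were filtered with filterByExpr by group, scaled by TMM and tested with edgeR 4.0.16 (quasi-likelihood test, 1 fit of 4 groups, no fold limit) in R 4.3.3 with limma 3.58.1. Adjustment was by Benjamini-Hochberg over all genes tested, with padj below 0.05. Means are over 3 libraries of 20530602 to 62359004 counts, and the lowest count of a keratin among the 10 was 4, for *krt96*. Ratios were tested by exact permutation. Log2 CPM used a prior count of 2. The alternatives were DESeq2's size factors, total counts, DESeq2 1.42.0 (Wald test), no filter, at least 10 counts in every library of a group, the 2 groups compared alone, a replicate block, and leaving out each library. Figures used Python 3.11.15, pandas 2.3.3, numpy 2.4.6 and matplotlib 3.10.9.

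By the methods each replicate comprised both fractions of both stages. Fractions of one stage with the same number were paired on that ground. Same-numbered fractions deviated from their group means together across genes at r of 0.0975, 0.314 and 0.157 at 48 hpf and 0.338, -0.0823 and 0.369 at 72 hpf.

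Named were all 10 keratins, the *krt18* genes and the 3 largest changes past the threshold among other keratins. The 5 genes most like *krt4* and *krt8* were named too. Markers came from the first 3 tested genes of each of 12 marker lists. Not all 3 were named for each list, and none for lens and retina. *icn*, *tfap2a*, *tfap2c*, *ppl* and *perp* were named outside this rule. The members, lists and tests were chosen with earlier results of these data known.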

Additional observations from a re-analysis of the deposited data

Results flagged for a closer look

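In 2 of the 10 keratins the change of the gap between the fractions from 48 to 72 hpf passed the threshold in the interaction test of edgeR. The median change of the 10 was -2.14, and 7 were lower at an unadjusted p below 0.05, for which no share of all genes was taken. Not passing does not show that a gap stayed the same. For *krt91* the change was -6.05 on the log2 scale (SE 1.18, padj = 0.01), from 5.72 at 48 hpf to -0.33 at 72 hpf. In CPM, GFP+ cells had 210, 17.9 and 23.6 at 48 hpf and 27.8, 22.1 and 24.2 at 72 hpf, while GFP- cells had 1.36, 0.658 and 2.77 and then 47.0, 24.0 and 22.3. Without GFP+ replicate 1 of 48 hpf the change was still past the threshold, with -4.03 on the log2 scale and padj = 0.035. For *krt4* the change was -2.11 (SE 0.60, padj = 0.0487), from 5.10 to 2.99, with every GFP+ library above every GFP- library at both stages. The *krt4* call held in 4 of 12 fits that left out a library. It was lost with replicate numbers as a block shared by the stages (padj = 0.058). Beside these, the interaction was called lower for 10 of 28 epidermis and periderm genes (4 without GFP- replicate 1 of 48 hpf). One of them, *icn*, had 1.31 (padj = 0.15) at 48 hpf and -1.97 (padj = 0.055) at 72 hpf, neither past the threshold. Its GFP- replicates 1, 2 and 3 of 72 hpf had 2524, 519 and 258 CPM. Of the liver genes 10 of 11 were called lower, against a background of 5.7%. The part of such cells in the keratin values was not tested.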

How the results depend on the processing

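The directions of the called keratins held in all fits, and the number called moved with the setting. Leaving out each library in turn gave 8 to 9 called keratins at 48 hpf and 4 to 7 at 72 hpf, where 7 was reached without GFP- replicate 1. From 48 to 72 hpf it gave 1 to 2 in GFP+ cells and 4 to 8 in GFP- cells, where 8 was reached without GFP- replicate 3 of either stage. For the interaction it gave 1 to 6, with 6 without GFP- replicate 3 of 48 hpf and 4 without GFP- replicate 3 of 72 hpf. The fit of GFP+ libraries alone called 5 between the stages, 2 higher and 3 lower, with no share of all genes taken for it. In the interaction, total counts called 1, no filter called 1, and the replicate block called 1. A block for each replicate within a stage, chosen after seeing the data, called 4 in the interaction, adding *cyt1* and *krt92*.

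With the replicate block, 10 keratins were called at 48 hpf and 5 at 72 hpf. Although the methods number replicates across both stages, pairing between the stages was not evident in each pair, with r across genes from -0.114 to 0.0136 in GFP+ and from 0.00243 to 0.277 in GFP- libraries. That block moved *krt8* in (padj = 0.03) and *krt96* out (padj = 0.074) for GFP- cells between the stages, and *krt4* out of the interaction. Beside those given here and the calls of *krt94*, *cyt1* and *krt18a.2* between the fractions, it changed no other call of the 10 keratins and the 3 *krt18* genes.

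Signs turned only for values that were not called. At 72 hpf, leaving out libraries gave *krt91* from -0.527 to 0.113 (without GFP- replicate 1), *krt94* from -0.067 (without GFP+ replicate 1) to 0.952 and *krt18a.1* from -0.25 to 0.253, and *krt18a.1* was 0.066 with total counts, 0.022 with no filter and 0.023 with the replicate block. Between the stages it gave *krt91* in GFP+ cells from -2.242 to 0.252 (without replicate 1 of 48 hpf) and *cyt1l* in GFP- cells from -0.044 (without replicate 1 of 72 hpf) to 3.992. In the interaction it gave *krt15* from -0.957 to 0.157 and *krt94* from -0.944 to 0.073 (both positive without GFP- replicate 1 of 72 hpf), and *krt18a.2* from -2.896 to 0.123 (without GFP- replicate 1 of 48 hpf). The causes were not tested. Of all single-gene values, 808 stayed on their side of the threshold, 43 passed it, 54 were lost and 13 turned sign. Scaling by total counts lowered the median log2FC of all genes by -0.30 in GFP+ and -0.21 in GFP- cells between the stages.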
